A study of Rattus norvegicus with 8 samples.

Results

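The family of miR-148 and miR-152 comprises 3 mature microRNAs of the rat, rno-miR-148a-3p, rno-miR-148b-3p and rno-miR-152-3p (written without the species prefix below), which were followed in the small RNA of exosomes, the membrane vesicles that cells shed into their surroundings. The members were found by name among rows with rat names in the deposited count table, where each was represented by 1 row, so that 3 of 1273 mature names and 3 of 1512 rows are described here. The exosomes came from nucleus pulposus progenitor cells (NPPC, 4 libraries) and from nucleus pulposus cells (NPC, 4 libraries) of the rat intervertebral disc, the nucleus pulposus being the gel-like centre of the disc. No genotype, treatment, passage or age was given in the labels for either group, and they leave unsaid whether the 4 libraries of a group were made from different cultures or different animals. The p-values therefore measure the spread among these libraries, which may be technical.

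A microRNA guides Argonaute proteins to messenger RNAs that pair with its seed, bases 2 to 8 counted from the 5′ end, and lowers their translation and stability. The members of the family share a seed and are known above all as repressors of DNA methyltransferase messages, DNMT1 in particular, the enzyme that copies methylation marks onto newly made DNA. In human cells miR-148a has also been tied to DNMT3B, a methyltransferase that sets marks de novo. The libraries held small RNA alone, so the methyltransferase messages themselves were not measured and the repression that gives the family its name was not tested.

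The deposited sequences of the 3 members are shown because the seed, in capitals, is common to all of them and the differences lie outside it. The table writes T in place of U.
miR-148a-3p: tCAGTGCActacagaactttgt
miR-148b-3p: tCAGTGCAtcacagaactttgt
miR-152-3p: tCAGTGCAtgacagaacttgg
Counted from the 5′ end, miR-148b-3p differed from miR-148a-3p by C9T and T10C, and miR-152-3p differed from miR-148a-3p by C9T, T10G and T20G. Between miR-148b-3p and miR-152-3p the differences were C10G and T20G, so that any pair of members differed at 2 or more bases over the length they share. GC content was 40.9% in miR-148a-3p, 40.9% in miR-148b-3p and 47.6% in miR-152-3p. RefSeq (GRCr8) lists all 3 members. Its miR-148b-3p and miR-152-3p were identical to the deposited sequences, and its miR-148a-3p was 21 bases long, where the deposited form had 22 through 1 further T at the 3′ end.

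The hairpins from which the members are cut are given with both arms in capitals, the 5p arm first, because the relative use of the arms is described further on.
mir-148a hairpin: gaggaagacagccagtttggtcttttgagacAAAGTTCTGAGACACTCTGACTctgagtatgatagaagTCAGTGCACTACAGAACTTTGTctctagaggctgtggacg
mir-148b hairpin: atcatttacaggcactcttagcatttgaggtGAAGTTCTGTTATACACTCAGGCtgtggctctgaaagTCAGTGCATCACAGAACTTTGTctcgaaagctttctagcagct
mir-152 hairpin: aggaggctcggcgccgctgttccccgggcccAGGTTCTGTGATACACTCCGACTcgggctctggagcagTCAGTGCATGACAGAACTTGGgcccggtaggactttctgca
The deposited table places them at chr4:81013266-81013374 on the minus strand (mir-148a), chr7:144912030-144912140 on the plus strand (mir-148b) and chr10:84719302-84719411 on the plus strand (mir-152). Their genome build was not given in the sources used here. In the RefSeq gene table of GRCr8, Mir148b lies within the span of Copz1 and Mir152 within that of Copz2. These are paralogs that code for zeta subunits of the COPI vesicle coat. No other gene of that table spans Mir148a.

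The NPPC libraries held 819845 to 1416940 counts and the NPC libraries 329011 to 681591, so every NPPC library was the deeper. NPC replicate 1 stood apart before any comparison. It was the shallowest, its TMM factor (the trimmed-mean scaling of library size in edgeR) was 1.64 where the other 7 factors lay between 0.872 and 1.01, and the mean GC content of its counted sequences was 50.2%, against 44.1% to 45.7% in the other 7 libraries. The members' log2 fold changes and shares of family counts are therefore given with and without this library. Some other results are given with it only, among them ranks, fits with other scalings or a GC correction, and the distances between patterns.

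All 3 members were present in every library, and in 8 of 8 libraries miR-152-3p had the most counts, miR-148a-3p fewer and miR-148b-3p the fewest. Among the 415 rat mature names, ranked by their mean share of library counts, miR-152-3p stood 11th in NPPC and 7th in NPC exosomes. miR-148a-3p stood 20th in NPPC and 15th in NPC exosomes, and miR-148b-3p 63rd in NPPC and 70th in NPC exosomes. miR-152-3p exceeded miR-148a-3p by 1.34 to 1.69 times in NPPC libraries and by 1.15 to 1.31 times in NPC replicates 2 to 4, while in NPC replicate 1 the ratio was 2.83. miR-148a-3p exceeded miR-148b-3p by 8.46 to 10.8 times in NPPC and by 10.5 to 14.1 times in NPC libraries.

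Together the members took 2.85%, 3.03%, 2.64% and 2.68% of all counts in NPPC replicates 1 to 4, against 3.85%, 3.44%, 3.50% and 3.73% in NPC replicates 1 to 4. The NPPC libraries were the lower in this share and the groups did not overlap; among single features 5.64% were likewise lower in all NPPC than in all NPC libraries on this scale. The means were 2.80% ± 0.179 in NPPC and 3.63% ± 0.194 in NPC exosomes (SD, n = 4 each). Without NPC replicate 1 the NPC mean was 3.56% ± 0.154 (SD, n = 3), and 12.9% of single features were lower in all NPPC libraries. On the CPM scale (counts relative to library size adjusted by the TMM factor) the summed family was at 30200 ± 1845 CPM in NPPC and 34349 ± 7504 CPM in NPC exosomes (SD, n = 4 each), and the groups overlapped, since NPC replicate 1 stood at 23540 CPM while NPC replicates 2 to 4 reached 35131 to 40142 CPM. The mean difference on the log2 scale, NPPC minus NPC, was -0.16, and -0.33 without NPC replicate 1. No test was made of the sum.

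The 2 scales differ in what they hold fixed. With total count scaling the median log2 fold change of all 390 features tested was -0.29, against -0.038 with TMM factors. Relative to that median, the log2 fold changes with total count scaling were -0.093 for miR-148a-3p, 0.29 for miR-148b-3p and -0.11 for miR-152-3p.

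miR-148a-3p, a well-studied repressor of DNMT1 in human cells, was measured at 11542, 12223, 11483 and 10846 CPM in NPPC replicates 1 to 4, against 6034, 14584, 17008 and 17289 CPM in NPC replicates 1 to 4. The NPPC libraries lay close together and below NPC replicates 2 to 4, while NPC replicate 1 was the lowest of all 8. The means were 11524 ± 563 CPM in NPPC and 13729 ± 5271 CPM in NPC exosomes (SD, n = 4 each). By edgeR's quasi-likelihood test the log2 fold change of NPPC over NPC was -0.25 ± 0.30 (SE), with a 95% interval from -0.94 to 0.44. Its Benjamini-Hochberg adjusted edgeR p was 0.698 across the 390 features, so miR-148a-3p did not pass.

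Without NPC replicate 1 the remaining NPC libraries averaged 16294 ± 1487 CPM (SD, n = 3), and every NPPC library lay below every one of them. The log2 fold change became -0.49 ± 0.089 (SE), with a 95% interval from -0.70 to -0.28 and an edgeR adjusted p of 0.0529 over 427 features, so the miRNA again did not pass. Its unadjusted p was the 5th smallest. In that fit 0.234% of features passed and 20.1% had an unadjusted p under 0.05, 11.2% with lower values in NPPC exosomes. In 13.6% the NPPC libraries all lay below the NPC libraries as they did for miR-148a-3p.

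miR-152-3p, which is also known to repress DNMT1, was measured at 15456, 19230, 16874 and 18350 CPM in NPPC replicates 1 to 4, against 17073, 19162, 21929 and 19931 CPM in NPC replicates 1 to 4. The groups overlapped, and NPC replicate 1 lay close to the other libraries, unlike for miR-148a-3p. The means were 17477 ± 1661 CPM in NPPC and 19523 ± 2007 CPM in NPC exosomes (SD, n = 4 each), with a log2 fold change of -0.16 ± 0.13 (SE), a 95% interval from -0.47 to 0.15 and an edgeR adjusted p of 0.596. Without NPC replicate 1 the log2 fold change was -0.21 ± 0.10 (SE), with an edgeR adjusted p of 0.286.

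As a share of all counts miR-152-3p took 1.51% to 1.79% in NPPC and 1.88% to 2.79% in NPC libraries, which did not overlap. On that scale 5.64% of features were likewise lower in all NPPC than in all NPC libraries. Without NPC replicate 1 this held for 12.9% of features, and for miR-148a-3p as well as miR-152-3p. miR-148a-3p then took 0.954% to 1.17% in NPPC and 1.43% to 1.67% in NPC libraries. On the CPM scale 4.62% of features were lower in all NPPC than in all NPC libraries, and 0 of the 3 members were. With total count scaling the edgeR log2 fold change of miR-152-3p was -0.40 ± 0.19 (SE), with an adjusted p of 0.444. The median over all features with that scaling was -0.29.

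miR-148b-3p, the least abundant member, was measured at 1198, 1131, 1185 and 1282 CPM in NPPC replicates 1 to 4, against 433, 1385, 1205 and 1365 CPM in NPC replicates 1 to 4. NPC replicate 1 was far below the other 7 libraries, which lay close together. The means were 1199 ± 62.2 CPM in NPPC and 1097 ± 450.1 CPM in NPC exosomes (SD, n = 4 each). The log2 fold change was 0.13 ± 0.34 (SE), with a 95% interval from -0.64 to 0.90 and an edgeR adjusted p of 0.866, and it turned to -0.13 ± 0.10 (SE) without NPC replicate 1, with an edgeR adjusted p of 0.487.

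Thus 0 of the 3 members passed edgeR's test, and 0 had an unadjusted p under 0.05 in this fit of all 8 libraries. Over all features tested 0.256% passed, which was 1 miRNA of 390, miR-146a-5p, and 10.5% had an unadjusted p under 0.05, 6.41% with lower values in NPPC exosomes. With the replicate number as a block 0 features passed by edgeR, with 48 at an unadjusted p under 0.05, while DESeq2 called 6 and limma-voom 1. The members' median log2 fold change was -0.16, beside -0.038 over all features, and without NPC replicate 1 it was -0.21, beside -0.051.

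**Figure D1:**
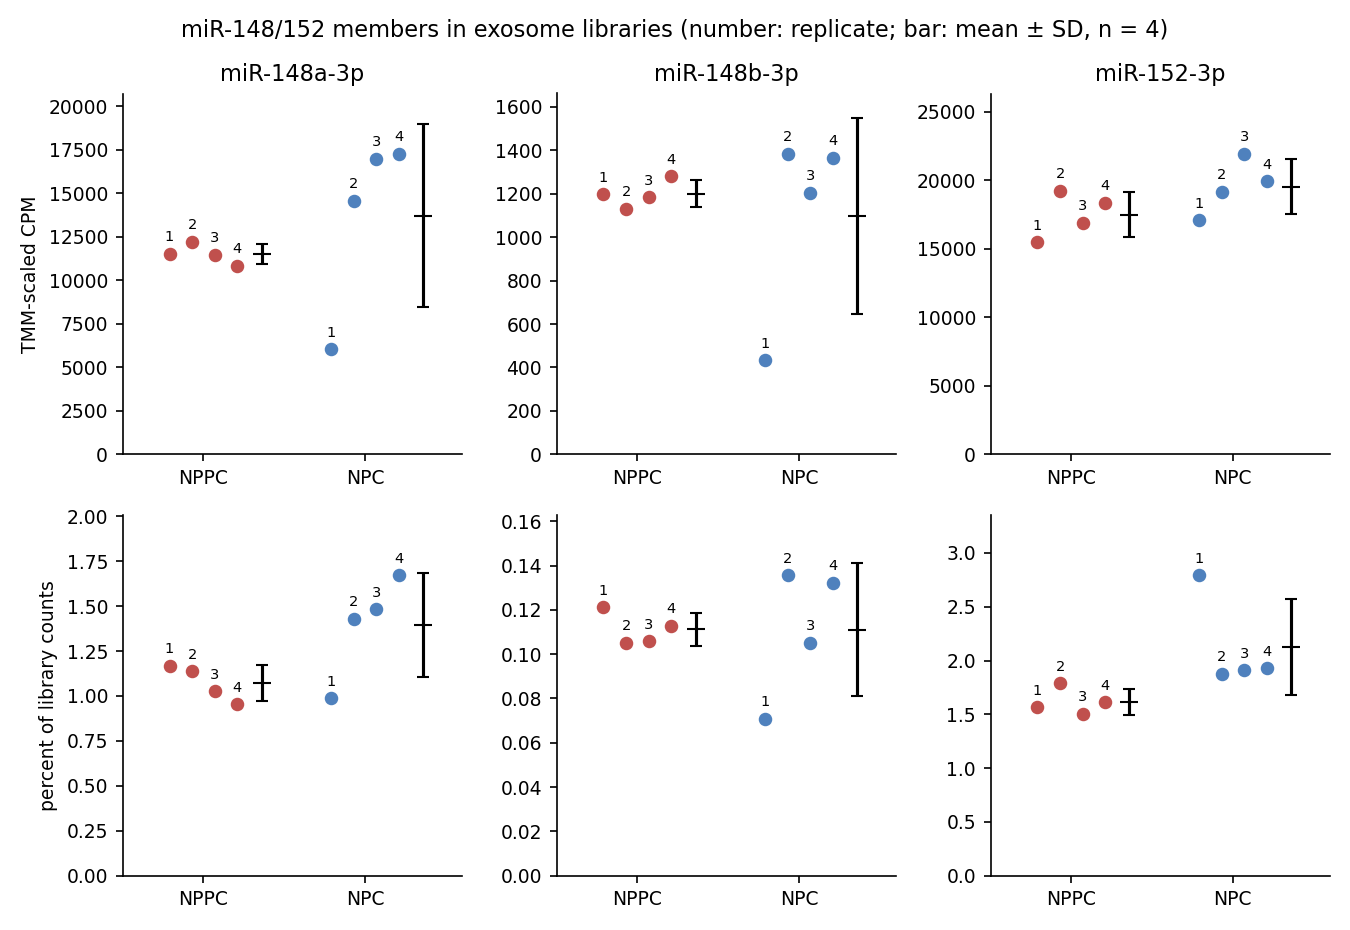
Level of each member in the 8 libraries, NPPC left of NPC, as TMM-scaled CPM (upper row) and as percent of all counts of the library (lower row). Points are libraries numbered by replicate, and bars are the mean ± SD (n = 4). NPC replicate 1 lies at 6034 CPM for miR-148a-3p and 433 CPM for miR-148b-3p, below all other libraries, but at 17073 CPM for miR-152-3p, among them.

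**Figure D2:**
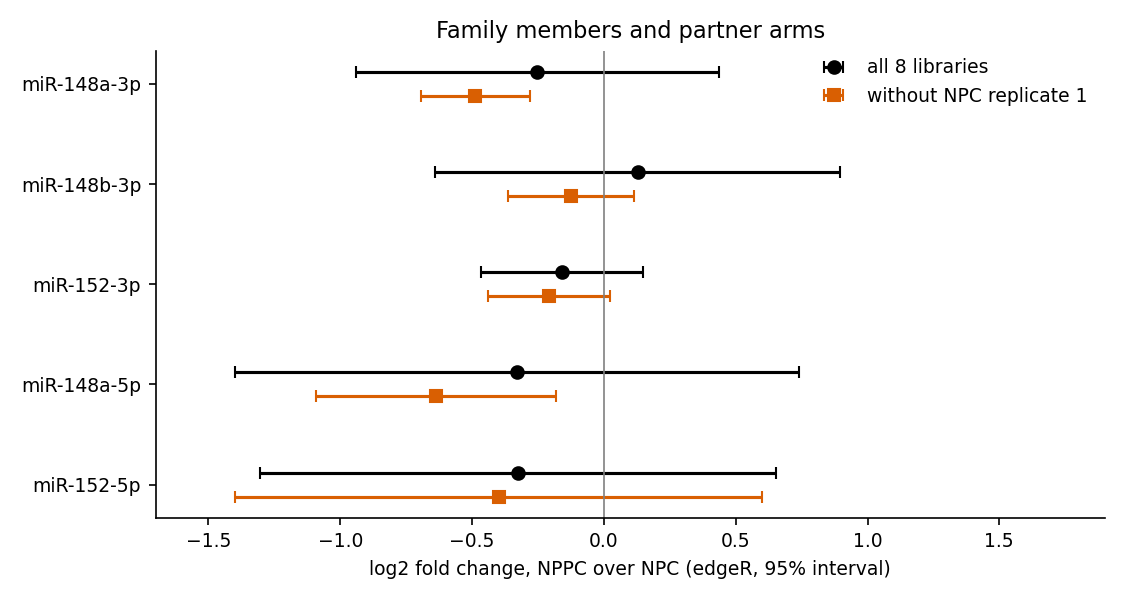
log2 fold change of NPPC over NPC by edgeR for the 3 members and for the 5p partner arms that were abundant enough to test, with 95% intervals (horizontal lines), from all 8 libraries (circles) and without NPC replicate 1 (squares). The interval of miR-148a-3p runs from -0.94 to 0.44 with all libraries and from -0.70 to -0.28 without that replicate.

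Since all members carry the same seed, the share of the family's counts held by each one needs no scaling between libraries. The 3 members made up nearly all counts with this seed. Of 1512 rows 4 carried it, the fourth being a longer form named after opossum miR-152-3p with 7 counts in NPPC replicate 2, 8 counts in NPPC replicate 4 and 0 elsewhere, and the 3 members held 99.977% or more of seed counts in every library. Counting error was small, as the widest 95% exact (Clopper-Pearson) interval of a share reached 0.781 percentage points to either side. Such intervals cover counting error only, since reads without molecular identifiers are not independent molecules.

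miR-152-3p held 54.8%, 59.0%, 57.1% and 60.2% of family counts in NPPC replicates 1 to 4, against 72.5%, 54.5%, 54.6% and 51.7% in NPC replicates 1 to 4. It was the largest part of the family in every library, by far the most so in NPC replicate 1. The mean was 57.8% ± 2.35 in NPPC and 58.3% ± 9.56 in NPC exosomes (SD, n = 4 each) (two-sided exact permutation test, p = 1).

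miR-148a-3p held 40.9%, 37.5%, 38.9% and 35.6% in NPPC replicates 1 to 4, against 25.6%, 41.5%, 42.4% and 44.8% in NPC replicates 1 to 4. Every NPPC library lay below NPC replicates 2 to 4 and above NPC replicate 1. The mean was 38.2% ± 2.25 in NPPC and 38.6% ± 8.74 in NPC exosomes (SD, n = 4 each) (two-sided exact permutation test, p = 0.971).

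miR-148b-3p held 4.25%, 3.47%, 4.01% and 4.21% in NPPC replicates 1 to 4, against 1.84%, 3.94%, 3.00% and 3.54% in NPC replicates 1 to 4. The mean was 3.98% ± 0.357 in NPPC and 3.08% ± 0.914 in NPC exosomes (SD, n = 4 each) (two-sided exact permutation test, p = 0.0857). Adjusted over the 3 shares by Benjamini-Hochberg, the exact permutation p values were 1, 1 and 0.257 for miR-152-3p, miR-148a-3p and miR-148b-3p.

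Without NPC replicate 1 the shares of the major members lay further apart between the groups. The share of miR-152-3p was 57.8% ± 2.35 in NPPC (SD, n = 4) and 53.6% ± 1.69 in NPC exosomes (SD, n = 3), a difference of 4.18 percentage points, and that of miR-148a-3p was 38.2% ± 2.25 in NPPC (SD, n = 4) and 42.9% ± 1.71 in NPC exosomes (SD, n = 3), a difference of -4.67 points. The groups did not overlap in either share, and since the pair makes up nearly all family counts, these are not separate results. The two-sided exact permutation p was 0.0571 (adjusted p = 0.0857). It is the smallest that the test as run can give over the 35 arrangements of 4 against 3 libraries. That test doubles the one-sided p, and in this form it cannot reach 0.05. The share of miR-148b-3p differed by 0.489 points (exact permutation p = 0.171).

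**Figure D3:**
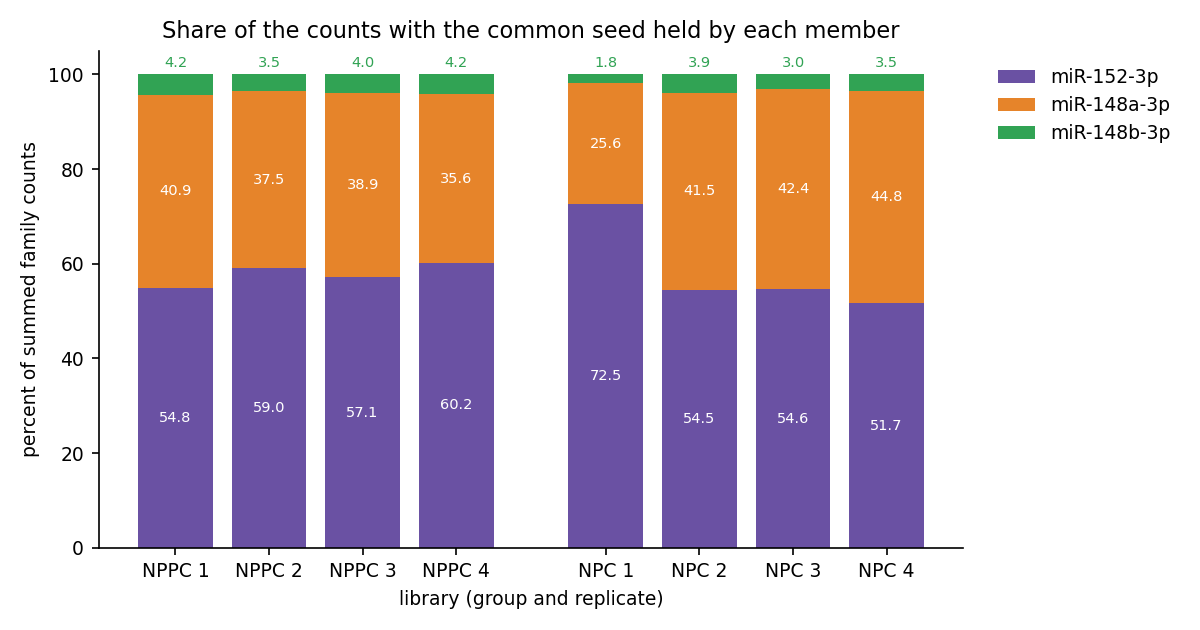
Share of the summed family counts held by each member in each library, in percent, NPPC libraries left of NPC libraries; the colours stand for the members and add to 100%. miR-152-3p holds 72.5% in NPC replicate 1 and 51.7% to 60.2% in the other 7 libraries.

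NPC replicate 1 stood differently for each member, and differently on each scale. As percent of library counts it held the highest family share of the 8 libraries, 3.85%, and the highest share of miR-152-3p, 2.79%, while its miR-148a-3p took 0.988% and its miR-148b-3p 0.0708%. Against their means over the 8 libraries on the log2 CPM scale, miR-148b-3p stood at -1.33 there, miR-148a-3p at -1.0 and miR-152-3p at -0.11. The member nearest its mean was the one with 47.6% GC, and both others had 40.9%, in a library whose counted sequences were richer in GC than those of the rest. The part of GC content in these values was not tested member by member. With a GC correction of each library, added after the data were seen, the log2 fold changes were -0.85 for miR-148a-3p, -0.43 for miR-148b-3p and -0.36 for miR-152-3p, with edgeR adjusted p values of 0.253, 0.684 and 0.684 (unadjusted 0.00219, 0.0630 and 0.0715), so 0 members passed and miR-148b-3p changed sign. Of the 390 features in that fit 1 passed, and 25 had an unadjusted edgeR p under 0.05.

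**Figure D4:**
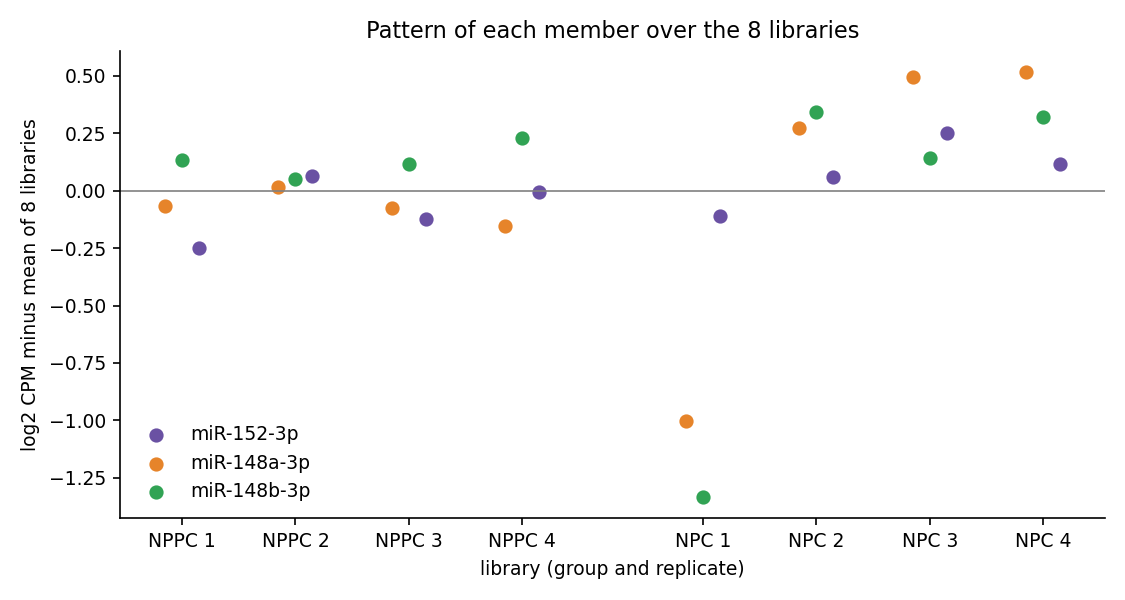
Log2 CPM of each member after subtraction of its mean over the 8 libraries, one point per member and library, NPPC libraries left of NPC libraries. NPC replicate 1 lies at -1.33 for miR-148b-3p and -1.0 for miR-148a-3p, and at -0.11 for miR-152-3p.

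The rat miRNAs whose centred log2 CPM lay closest to a member were sought among 166 others with a mean of at least 100 CPM, by the mean absolute difference over the 8 libraries. For miR-148a-3p they were miR-143-3p, miR-199a-3p and miR-672-5p, at 0.16, 0.19 and 0.20, where the median of the 166 was 0.44. For miR-148b-3p they were miR-28-5p, miR-455-5p and miR-196b-5p, at 0.11, 0.13 and 0.14, with a median of 0.42. For miR-152-3p they were miR-382-5p, miR-27b-3p and miR-672-5p, at 0.092, 0.11 and 0.12, with a median of 0.35. The members were not each other's nearest neighbours. miR-148b-3p was 9th from miR-148a-3p and miR-152-3p was 18th, and from miR-152-3p the others were 51st and 77th. From miR-148b-3p, miR-148a-3p was 18th and miR-152-3p was 53rd. All of these distances include NPC replicate 1.

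The 5p arms of the hairpins, the strands that are usually discarded, were sparse. miR-148a-5p and miR-148b-5p share a seed of their own (capitals), and that of miR-152-5p is different.
miR-148a-5p: aAAGTTCTgagacactctgact
miR-148b-5p: gAAGTTCTgttatacactcaggc
miR-152-5p: aGGTTCTGtgatacactccgact
miR-148a-5p had 76, 100, 128 and 89 counts in NPPC replicates 1 to 4, against 16, 99, 67 and 82 in NPC replicates 1 to 4. miR-152-5p had 37, 28, 25 and 52 counts in NPPC replicates 1 to 4, against 19, 17, 38 and 23 in NPC replicates 1 to 4. miR-148b-5p had 0, 11, 19 and 13 counts in NPPC replicates 1 to 4, against 0, 5, 13 and 6 in NPC replicates 1 to 4, and was too sparse to test. Of 5804 table values above 0 only 402 are under 5 and the lowest is 1.25, so reads may exist behind a listed 0. With 3 counts taken as the limit that a count of 0 allows, the 5p share could be up to 0.302% in NPPC replicate 1 and 1.29% in NPC replicate 1.

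The 3p arm therefore held nearly all counts of each hairpin in both groups. For mir-148a it held 99.21% ± 0.068 in NPPC and 99.21% ± 0.27 in NPC exosomes, for mir-148b 99.2% ± 0.538 in NPPC and 99.2% ± 0.742 in NPC exosomes, and for mir-152 99.80% ± 0.081 in NPPC and 99.78% ± 0.059 in NPC exosomes (SD, n = 4 each). Two-sided exact permutation p values were 1, 1 and 0.743, and each was 1 after Benjamini-Hochberg adjustment over the 3 hairpins. By edgeR the log2 fold change of miR-148a-5p was -0.33 ± 0.47 (SE, adjusted p = 0.740), and -0.64 ± 0.20 (SE, adjusted p = 0.140) without NPC replicate 1, on the same side as its 3p arm. That of miR-152-5p was -0.32 ± 0.43 (SE, adjusted p = 0.729), and -0.40 ± 0.43 (SE, adjusted p = 0.608) without that library.

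Other miRNAs published as repressors of DNA methyltransferase messages were taken from a list of 12, which holds the miR-29 and miR-101 families, miR-143-3p, miR-185-5p, miR-342-3p, miR-126a-3p, miR-200b-3p, miR-200c-3p and miR-221-3p. All 12 were in the table, but miR-101a-3p and miR-101b-3p had equal counts in every library and the same sequence, so they are counted once, which leaves 11. Of these 10 were abundant enough to test and 0 passed edgeR's test, with 5 positive and 5 negative log2 fold changes and a median of 0.021. Without NPC replicate 1 there were 4 positive and 6 negative values, a median of -0.20, and again 0 passed.

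The most abundant of the list was miR-143-3p, known from smooth muscle and reported to repress DNMT3A in human cells, with 45166 ± 2783 CPM in NPPC and 51558 ± 11783 CPM in NPC exosomes (SD, n = 4 each), a log2 fold change of -0.19 (edgeR adjusted p = 0.644). NPC replicate 1 held 34205 CPM of it, below every other library, and without that library the log2 fold change was -0.33 (edgeR adjusted p = 0.114). miR-221-3p, known for targeting the cell cycle brake Cdkn1b, had 20815 ± 1514 CPM in NPPC and 16737 ± 1017 CPM in NPC exosomes (SD, n = 4 each), a log2 fold change of 0.31 (edgeR adjusted p = 0.387), which was 0.30 without NPC replicate 1. miR-29a-3p, of the family best known for repressing the de novo methyltransferases and collagens, had 15311 ± 1213 CPM in NPPC and 10156 ± 3632 CPM in NPC exosomes (SD, n = 4 each), a log2 fold change of 0.59 (edgeR adjusted p = 0.458). NPC replicate 1 held 4902 CPM of miR-29a-3p, while NPC replicates 2 to 4 held 10777 to 13125 CPM, and without replicate 1 the log2 fold change was 0.37. The summed list stood at 83181 to 89229 CPM in NPPC libraries, against 56800 CPM in NPC replicate 1, the other NPC libraries holding 86552 to 96374 CPM.

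The seed of the miR-130 and miR-301 family is that of the members moved by 1 base, AGTGCAA in place of CAGTGCA, so the matching sites in messages, TTGCACT and TGCACTG, overlap in part.
miR-130a-3p: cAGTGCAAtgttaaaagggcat
miR-301a-3p: cAGTGCAAtagtattgtcaaagc
Of 4 such miRNAs listed 3 were in the table and 2 could be tested, and these were far less abundant than miR-148a-3p and miR-152-3p. miR-130a-3p had 340.0 ± 37.3 CPM in NPPC and 268 ± 139 CPM in NPC exosomes (SD, n = 4 each), a log2 fold change of 0.34 (edgeR adjusted p = 0.728), which was 0.040 without NPC replicate 1. miR-301a-3p had 153 ± 45.0 CPM in NPPC and 100.3 ± 49.2 CPM in NPC exosomes (SD, n = 4 each), a log2 fold change of 0.60 (edgeR adjusted p = 0.596), which was 0.31 without NPC replicate 1.

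Markers of blood and liver RNA, which exosome preparations can carry, were low beside the summed family. In NPPC replicate 2 and NPC replicate 1 their summed level exceeded that of miR-148b-3p. Of 8 listed 7 had rows with rat names and 6 were tested, with 1 positive (miR-451-5p) and 5 negative log2 fold changes and 0 passing. Their summed level was 275 to 1584 CPM in NPPC libraries and 490 to 796 CPM in NPC libraries, the highest being NPPC replicate 2, and the leukocyte marker miR-142-3p was at 0 in NPPC replicates 1 and 3 and in NPC replicates 1 and 4. The other arm of that hairpin, miR-142-5p, had 65.0 to 147.9 CPM in NPPC libraries, against 0 in NPC replicate 1 and 163 to 172 CPM in NPC replicates 2 to 4. miR-223-3p, another leukocyte marker, was listed under its mouse name alone and is not in the sum; it had 32.4 to 83.2 CPM in NPPC libraries, against 0 in NPC replicate 1 and 40.4 to 125 CPM in NPC replicates 2 to 4. The erythrocyte marker miR-486 was listed under a dog name as well as its rat name, and the dog entry is not in the sum either. That entry had 56.4 to 201 CPM in NPPC and 72.4 to 282 CPM in NPC libraries. The rat entry of miR-486 had 58.1 to 507 CPM in NPPC and 141 to 421 CPM in NPC libraries, a log2 fold change of -0.54. Another erythrocyte marker, miR-451-5p, had 95.4 to 834 CPM in NPPC and 40.8 to 220 CPM in NPC libraries. Its log2 fold change was 1.29 (edgeR adjusted p = 0.564), and 1.01 without NPC replicate 1. The liver marker miR-122-5p had 10.8 to 21.7 CPM in NPPC and 9.28 to 32.0 CPM in NPC libraries. The part of such RNA in the levels of the family was not tested.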

How the data were processed

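Small RNA libraries from exosomes of NPPC and NPC followed the TruSeq protocol, per the labels' protocols, and the submitters' processing notes list CASAVA 1.8. Aligner, miRBase version and build were not given in the sources used here. Deposited values were estimated counts for each miRNA row, and 82.3% of values above 0 were whole within 1e-09; the counts of miR-148b-3p and miR-152-3p in NPC replicate 4 ended in a fraction. The authors also deposited a scaled signal, equal to the count times 1 factor per library, and the GC percent of each hairpin, which was not used in a test.

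Rows were summed per mature name, rounded and tested with edgeR 4.0.16 in R 4.3.3 (TMM factors, filterByExpr, two-sided quasi-likelihood test on group, Benjamini-Hochberg adjustment over 390 features, threshold 0.05). CPM values use TMM factors, and log2 CPM a prior count of 2. SEs are the log2 fold change divided by the root of F. Shares were compared by two-sided exact permutation over 70 arrangements, where the smallest p is 0.0286 (scipy 1.17.1). In simulated data 200 of 390 features were changed, where the fit of the real data called 1 of 390. From the simulated data edgeR recovered 23.3% of those changed 2-fold and 76.5% of those changed 4-fold, over 356 features, with 0 unchanged ones called. Recovery with few changed features was not simulated. Deviations of same-numbered libraries from their group means had correlations over features of 0.565, 0.116, 0.366 and 0.243 for replicates 1 to 4. Differently numbered libraries were not compared in this way, so these values cannot show whether the numbers mark pairs. The replicate block was therefore used only as an alternative. Other alternatives were other scalings, filters, DESeq2 1.42.0, limma 3.58.1 (voom), rat names alone, sums per sequence and each library left out. The authors' scaling and a loess GC correction (span 0.75) were added after the data were seen.

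The members and lists were chosen with earlier results of these data known. The named miRNAs were the members, their 5p arms, the 3 most abundant of the methyltransferase list, the tested miR-130 and miR-301 members, and the 3 closest in pattern to each member. Figures were drawn with matplotlib 3.10.9.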

Additional observations from a re-analysis of the deposited data

Results flagged for a closer look

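Of 38 groups of 4 libraries examined for the family, its arms and the named miRNAs of the lists, 2 had 1 library well apart from the rest; by chance about 1 in 20 groups would. The share of family counts held by miR-152-3p was 72.5% in NPC replicate 1 and 51.7% to 54.6% in the other NPC libraries. miR-143-3p stood at 41027 CPM in NPPC replicate 4 and at 46261 to 47058 CPM in the other NPPC libraries.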

How the results depend on the processing

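Over 20 alternatives each, miR-148a-3p (-0.85 to -0.064 on the log2 scale) and miR-152-3p (-0.40 to -0.031) stayed negative, and 0 members passed. Relative to the median of all features they were positive without a filter (0.17 and 0.27, with a median of -0.31). In the other settings both were negative relative to the median. miR-148b-3p ran from -0.43 to 0.27 and turned to -0.13 without NPC replicate 1 and to -0.43 with the GC correction. Adjusted p values ranged from 0.0529 to 0.936 for miR-148a-3p, 0.487 to 0.996 for miR-148b-3p and 0.286 to 0.940 for miR-152-3p. With the replicate block the values were -0.15, 0.25 and -0.16 for miR-148a-3p, miR-148b-3p and miR-152-3p, with edgeR adjusted p of 0.792, 0.677 and 0.544, and pairing changed no call among the members; for the shares it could change none, since 4 pairs cannot give a p below 0.125. The number of features called was 8 without a filter (more features tested), 6 with DESeq2 and 0 with the replicate block, and 0 to 1 with a library left out, since miR-146a-5p passed edgeR's test without NPC replicate 1 and no feature did without any of the other 7 libraries, where 23 to 65 had an unadjusted p under 0.05. Features at an unadjusted p under 0.05 numbered 103 without a filter, 54 with DESeq2 and 48 with the block. Higher and lower in NPPC, these were 16 and 25 with TMM factors, 10 and 33 with total counts, 21 and 17 with upper-quartile factors and 23 and 20 with the authors' scaling. The cause of the differences in tool and block was not tested. With a library left out the difference NPPC minus NPC in the share of family counts ran from -4.67 to 1.72 points for miR-148a-3p, from -2.78 to 4.18 for miR-152-3p and from 0.489 to 1.19 for miR-148b-3p, the first 2 turning in sign. The 3p share of hairpin counts ran from -0.11 to 0.098 points for mir-148a, -0.29 to 0.30 for mir-148b and -0.0092 to 0.048 for mir-152, with signs turning in all 3. The family level stayed negative in 13 alternatives (-0.38 to -0.073). Shares from rows without a name suffix could not be had, since miR-148a-3p has no such row. Depth limits the 5p arms, where miR-148b-5p reached at most 19 counts.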
